A study of Mus musculus with 12 samples.

Results

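Krüppel-like factors are DNA-binding proteins that control transcription, and 10 of their genes were followed in mouse dorsal root ganglia (DRG), the clusters of sensory nerve cell bodies beside the spinal cord. The genes Klf2, Klf3, Klf4, Klf5, Klf6, Klf7, Klf9, Klf10, Klf12 and Klf13 are taken by name and are 10 of the 24490 gene rows in the expression table. RNA from adult male C57Bl/6 mice, with no transgene or drug named for any group, was sequenced in 3 groups of 4 samples. The intact samples were whole ganglia, the unsorted samples were ganglia taken apart with enzymes into loose cells, and the MACS-sorted samples were such cells after magnetic removal of non-neuronal cells. MACS, magnetic cell sorting, here used a biotin-labelled antibody mix against non-neuronal cells and a column that held the labelled cells back. Each intact sample came from 1 mouse, each unsorted sample pooled 2 mice and each MACS-sorted sample pooled 8, so the groups differ in how many animals a sample averages.

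Krüppel-like factors bind GC-rich and CACCC sequences through zinc fingers at their carboxy terminus. Klf2, Klf4, Klf5, Klf6 and Klf7 are mostly described as activators, Klf9, Klf10 and Klf13 as repressors that recruit the Sin3 complex, and Klf3 and Klf12 as repressors that recruit the CtBP proteins. In neurons the family is best known for axon growth, which Klf6 and Klf7 promote and Klf4 and Klf9 hold back, and Klf7 is needed for the development of nociceptors, the pain-sensing neurons. Klf2 and Klf4 are also characteristic of endothelium, the lining of blood vessels, and Klf2, Klf4, Klf6 and Klf10 can be switched on rapidly by serum or stress.

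The upstream sequences of Klf7, the family member with the highest level in these ganglia, and of Klf2, Klf4 and Klf6, which differed most between samples of the unsorted group, are shown with matches to the GC-rich and CACCC letters that the family itself binds. Promoter windows from RefSeq on the build GRCm38.p6 (mm10) were matched by gene symbol for 8 of the 10 genes, all but Klf5 and Klf10. The 250 bases before the annotated start were searched on both strands. Capitals mark matches on either strand to the GC box, searched as GGGCGG, to the shorter motif CACCC, and to the MEF2 box. The windows are chr8:72318812-72319061 on the plus strand for Klf2, chr4:55532476-55532725 on the minus strand for Klf4, chr13:5861239-5861488 on the plus strand for Klf6 and chr1:64121390-64121639 on the minus strand for Klf7, each printed 5′ to 3′ in the direction of its gene.
Klf2: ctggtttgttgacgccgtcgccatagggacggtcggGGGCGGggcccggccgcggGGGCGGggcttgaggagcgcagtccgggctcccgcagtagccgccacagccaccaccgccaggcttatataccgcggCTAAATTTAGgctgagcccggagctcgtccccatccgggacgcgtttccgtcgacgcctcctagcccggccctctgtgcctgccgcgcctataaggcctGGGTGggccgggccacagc
Klf4: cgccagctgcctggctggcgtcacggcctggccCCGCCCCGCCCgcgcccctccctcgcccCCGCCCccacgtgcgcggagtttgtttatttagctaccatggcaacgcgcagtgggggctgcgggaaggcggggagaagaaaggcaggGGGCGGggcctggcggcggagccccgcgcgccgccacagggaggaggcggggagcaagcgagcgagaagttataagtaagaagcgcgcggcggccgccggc
Klf6: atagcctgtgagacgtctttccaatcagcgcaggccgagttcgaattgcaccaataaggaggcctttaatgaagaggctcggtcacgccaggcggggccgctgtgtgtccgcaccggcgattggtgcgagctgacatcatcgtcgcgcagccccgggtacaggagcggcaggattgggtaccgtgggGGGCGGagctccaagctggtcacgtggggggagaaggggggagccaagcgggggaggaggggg
Klf7: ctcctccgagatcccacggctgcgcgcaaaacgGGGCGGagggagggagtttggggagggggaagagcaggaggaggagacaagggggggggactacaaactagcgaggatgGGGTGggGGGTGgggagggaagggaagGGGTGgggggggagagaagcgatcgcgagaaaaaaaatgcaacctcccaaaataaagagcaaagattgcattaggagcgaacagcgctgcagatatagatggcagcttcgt
The GC box was present in 6 of the 8 windows and in 32.7% of all 32851 RefSeq windows of that length, and CACCC in 6 of the 8 and in 52.0% of all windows. The 6 windows with a GC box had 59.2% to 78.4% G and C letters, where the median of all windows was 52.4%. These shares of windows are not adjusted for that. Klf7 held 3 CACCC matches and 1 GC box. Klf4 held 4 GC boxes, a pair of which overlap, and Klf6 held 1, with no CACCC match in either window. Klf2 was the 1 member with a MEF2 box, which 2.92% of all windows held. The CArG box, through which serum response factor acts, was in none of the 8 windows and in 1.47% of all windows. These are matches of letters and not measured sites.

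Expression was given as FPKM, fragments counted per length of transcript and scaled to the size of the library, which allows levels of different genes to be set side by side. Depth, estimated from the spacing of low values, was 13500000 to 19200000 fragments per sample. Markers of several other cell types were lower in sum after sorting. The 6 satellite glia markers summed to 2103 to 2654 FPKM in the unsorted samples and 89.1 to 189 in the MACS-sorted ones. The 6 macrophage markers summed to 8.82 to 18.9 against 0.608 to 2.20. The 6 Schwann cell markers summed to 2001 to 3239 against 517 to 1204. Of these, Mbp was at 578 FPKM in MACS-sorted replicate 4, within its unsorted range of 396 to 586. The 5 neutrophil markers summed to 38.3 to 94.1 against 1.34 to 41.7, and MACS-sorted replicate 1 lay within the unsorted range. Endothelial, pericyte and smooth muscle, and red blood cell markers did not fall in that way as sums. Lymphocyte markers were at 0.327 to 2.37 FPKM in sum before and 0.366 to 2.90 after sorting, too low to test. In MACS-sorted replicates 1 to 4 the 7 endothelial markers summed to 55.0, 12.6, 47.8 and 75.8 FPKM. The 6 pericyte and smooth muscle markers summed to 56.6 to 74.3 FPKM in unsorted and 55.9 to 125 in sorted samples. Rgs5 made up most of that sum, at a mean of 43.8 FPKM in unsorted and 83.4 in sorted samples. Acta2, Myh11, Notch3, Pdgfrb and Des were each lower in every sorted sample than in any unsorted one. Red blood cell genes summed to 1678 to 15360 FPKM in the sorted samples against 112 to 400 in the unsorted samples. Intact replicate 1 stood apart from the other intact samples, with a median difference of 0.289 to 0.322 (log2, over 8263 genes) where other pairs of a group differed by 0.053 to 0.254, and unsorted replicates 1 and 2 were the closest pair.

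All 10 Klf genes were detected in every intact sample, at mean levels from 1.58 to 48.2 FPKM. Klf2, Klf3, Klf4 and Klf12 fell short there of the study's rule for an expressed gene, which here asks for over 5 FPKM in every sample of a group. Klf7 was highest, at 48.2 ± 11.4 FPKM (SD, n = 4), which put it at percentile 94.8 of all gene rows. Klf9 (24.2 ± 3.13), Klf13 (20.4 ± 1.88), Klf6 (16.6 ± 1.73) and Klf5 (16.2 ± 1.03) came next, and neighbours in that run overlapped between samples. Klf10 followed at 8.20 ± 1.29 FPKM, below every Klf5 value. Klf3 (5.04 ± 0.568), Klf2 (4.27 ± 0.736) and Klf4 (3.18 ± 0.659) again overlapped in neighbouring pairs, and Klf12 was lowest at 1.58 ± 0.232 FPKM. The 10 genes together summed to between 130 and 154 FPKM in the intact samples. That sum was between 153 and 187 FPKM once the cells were dissociated, and between 181 and 210 FPKM once they were sorted.

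**Figure D1:**
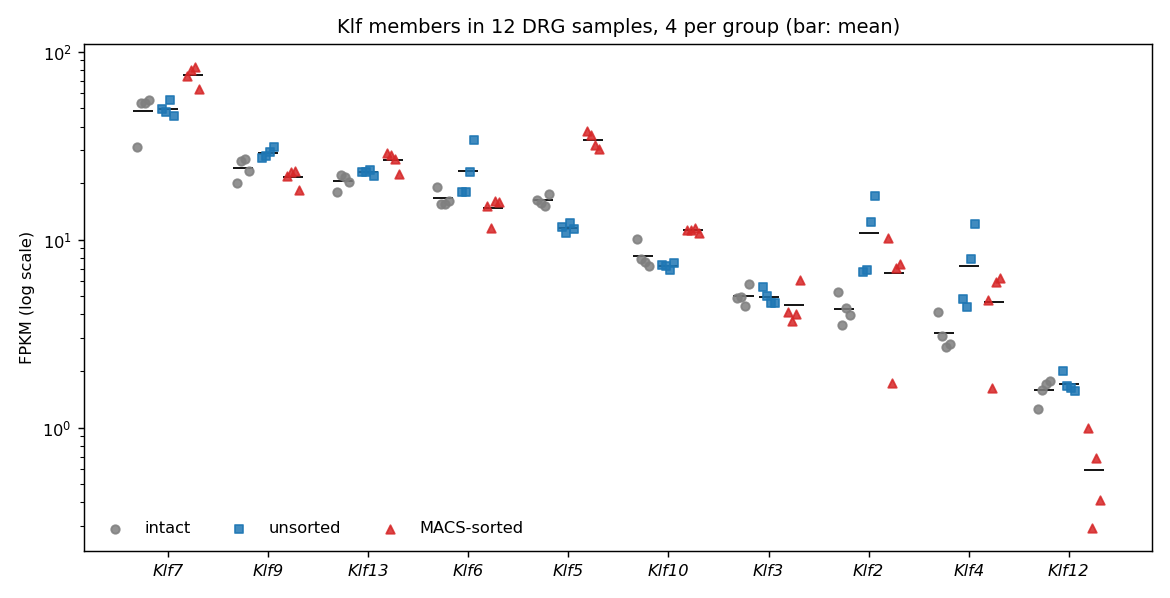
FPKM on a log scale for each of the 10 Klf genes, with 1 point per sample and a bar at the mean of the 4 samples of each group. Klf7 is highest in each group, the 4 MACS-sorted samples of Klf5, Klf7 and Klf10 sit above every unsorted sample, and Klf2 and Klf4 are spread widely in the unsorted and MACS-sorted groups.

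The order of levels changed after sorting. Klf7 stayed highest, at 75.1 ± 8.86 FPKM in the MACS-sorted samples, while Klf5 moved from 11.5 FPKM and the fifth place in the unsorted samples to 34.1 FPKM and the second place, above every value of Klf13 (26.5 ± 2.92). Klf9 (21.5 ± 2.22) overlapped with Klf13 and lay above Klf6 (14.7 ± 2.14), which overlapped with Klf10 (11.2 ± 0.289). Klf2, Klf4 and Klf3 lay at 6.61, 4.65 and 4.49 FPKM and could not be ordered beyond their spread. Klf12 was lowest here too, at 0.598 ± 0.315 FPKM.

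Sorting is the first comparison, MACS-sorted against unsorted cells, and asks which transcripts belong to the neurons that remain once non-neuronal cells are taken out. A gene was called when limma's adjusted p (Benjamini-Hochberg, two-sided) was under 0.05, the ratio of group means exceeded 0.5 on the log2 scale, and the higher group averaged over 5 FPKM. Klf5, Klf7 and Klf10 were called higher, 3 of 10 members, where 8.15% of the 12038 genes tested were. Klf6 was called lower, 1 of 10, where 12.5% of genes tested were. By adjusted p alone 3 members were higher and 3 lower (Klf6, Klf9 and Klf12), with 18.8% and 27.7% of all genes. The median log2-fold change of the 10 members was -0.29 and that of all genes -0.04. All 10 passed the filter of a mean of 1 FPKM over the 8 samples compared, Klf12 through its unsorted level. Of 6 pan-neuronal markers 1 was called higher (Avil) and 1 lower (Snap25), with a median log2-fold change of 0.225. They summed to 3465 to 3812 FPKM in unsorted and 3019 to 3918 in sorted samples. Small-diameter nociceptor markers moved with this comparison, 5 of 6 called higher, as did large-diameter neuron markers, 4 of 5 called lower with a sum of 729 to 910 FPKM in unsorted and 71.4 to 127 in sorted samples. Their part in the Klf values was not tested. In these bulk samples, fewer cells of a type and less RNA per cell cannot be told apart.

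Klf5, an activator best known from epithelial and smooth muscle cells, differed most among the members called after sorting. Its gene lies at chr14:99298691-99313409 (mm10). It was at 11.6, 10.8, 12.3 and 11.4 FPKM in unsorted replicates 1 to 4. The sorted samples, in the same order, held 38.0, 36.1, 32.0 and 30.3 FPKM. The groups were far apart, with the lowest sorted sample well over the highest unsorted one. The fold of means was 2.96, the log2-fold change of FPKM + 0.1 was 1.55 with a standard error of 0.09, and the limma adjusted p was 1.29e-06. Its log2-fold change ran from 1.48 to 1.68 over 24 alternative settings.

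Klf7, at chr1:64035671-64121389, was at 49.6, 48.0, 55.3 and 45.4 FPKM in the unsorted samples and at 74.1, 80.3, 83.0 and 63.0 in the MACS-sorted ones. Every sorted sample was above every unsorted one. The fold was 1.52 (log2-fold change 0.60, SE 0.098, limma adjusted p = 0.000854). Klf10, known as a gene induced early by transforming growth factor beta, at chr15:38291464-38300711, rose by a similar fold, 1.55, from 7.35, 7.25, 6.89 and 7.52 FPKM to 11.2, 11.3, 11.6 and 10.9. Its 4 sorted samples were even, with an SD of 0.04 on the log2 scale, at percentile 1.38 of 12283 genes, where the median gene had 0.202. The log2-fold change of Klf10 was 0.63 (SE 0.069, limma adjusted p = 6.64e-05).

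Klf6, an activator of axon growth that is also a stress-responsive gene, was the member called lower. At chr13:5861489-5870393, it measured 17.9, 17.8, 22.8 and 33.8 FPKM in the unsorted samples and 15.1, 11.5, 16.2 and 15.8 in the sorted ones. The groups did not overlap, but unsorted replicates 3 and 4 stood above replicates 1 and 2, which lay close to the sorted samples. The fold was 0.635 (log2-fold change -0.61, SE 0.20, limma adjusted p = 0.0317). The adjusted p of limma was above 0.05 without unsorted replicate 3 (0.0713), MACS-sorted replicate 1 (0.0529) or MACS-sorted replicate 2 (0.0773), while the log2-fold change was -0.60, -0.63 and -0.50. Without unsorted replicate 4 the log2-fold change was -0.41 (adjusted p = 0.0492, limma), and the call was lost on the size of the ratio. Leaving out unsorted replicates 3 and 4 together gave a log2-fold change of -0.29 and an adjusted p of 0.182 with limma.

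Klf9 and Klf12 were lower by adjusted p and missed a size or level limit of the call. Klf9, a repressor induced by thyroid hormone and glucocorticoids that lies at chr19:23141226-23166911, measured 27.2, 28.0, 29.1 and 31.2 FPKM in unsorted and 21.9, 22.8, 23.1 and 18.3 in sorted samples. All sorted samples were below all unsorted ones, with a log2-fold change of -0.43 (SE 0.088, limma adjusted p = 0.00308), but the ratio of means, -0.42 on the log2 scale, was within the limit of 0.5. Klf12, at chr14:99870640-100149796, measured 1.99, 1.67, 1.62 and 1.57 FPKM in unsorted and 1.00, 0.293, 0.685 and 0.412 in sorted samples. It was again lower in every sorted sample, with 0.349 of the unsorted mean (limma adjusted p = 0.00457), but no group reached 5 FPKM. Klf12 averaged under 1 FPKM in the sorted group and passed the filter through its unsorted level. Values of Klf12 under 1 FPKM rest on few reads.

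Klf13, Klf3, Klf2 and Klf4 did not pass the test after sorting. Klf13, at chr7:63886351-63938915, measured 23.0, 22.8, 23.4 and 21.9 FPKM in unsorted and 28.9, 28.1, 26.8 and 22.4 in sorted samples. The sorted replicate 4 lay within the unsorted range, and the adjusted p of limma was 0.0698. In 19 of 24 alternatives the limma adjusted p of Klf13 stayed above 0.05, at up to 0.241. Without MACS-sorted replicate 4 it was 0.00274, and it was 0.0172 after median-ratio scaling, 0.0123 after quantile scaling and 0.0222 with red blood cell genes taken out of the total, all with Klf13 higher. Red blood cell genes were highest in MACS-sorted replicate 4, at a sum of 15360 FPKM, beside 12540 in replicate 3. Their part in the Klf13 value was tested only by taking them out of the total. MACS-sorted replicate 4 also had the highest satellite glia (189), Schwann cell (1204) and fibroblast (32.4) sums of its group. Its small-diameter nociceptor sum, 1344 FPKM, was the lowest. The part of these sums in the Klf13 value was not tested. Klf3, at chr5:64803523-64830129, was at 4.95 ± 0.485 FPKM in unsorted and 4.49 ± 1.10 FPKM in sorted samples (adjusted p = 0.435, limma). Klf3 without MACS-sorted replicate 4, which at 6.12 FPKM was above all other sorted samples, had a log2-fold change of -0.32 and a limma adjusted p of 0.0320. In 22 of its 23 alternatives the limma adjusted p of Klf3 was above 0.05. Its log2-fold change ran from -0.33 to 0.08 over all 23.

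**Figure D2:**
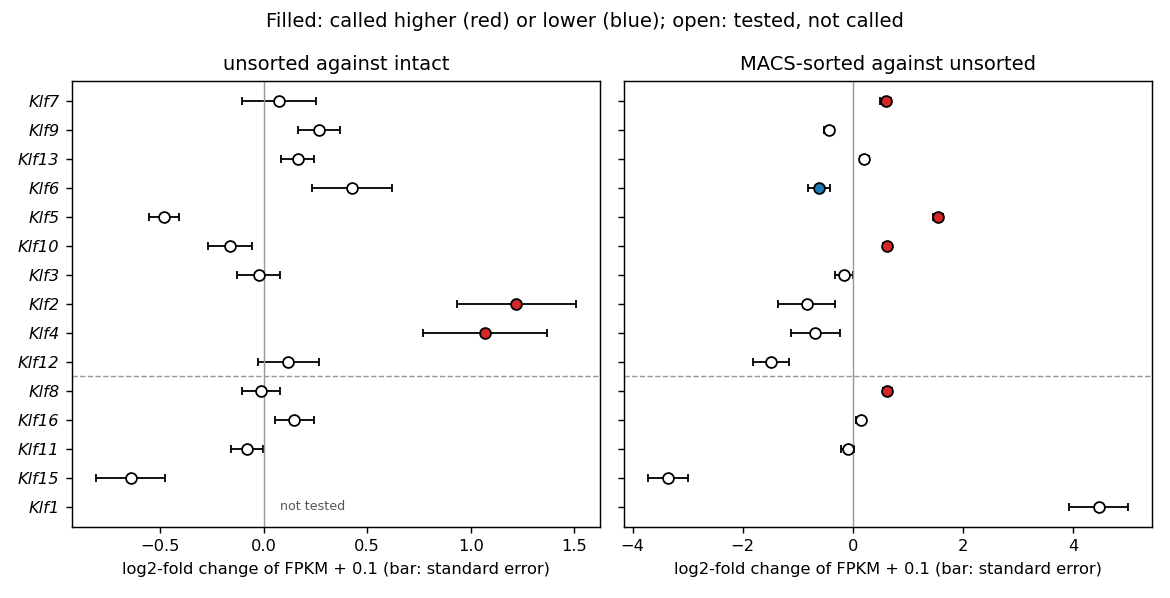
Log2-fold change of FPKM + 0.1 with its standard error (bar) for the 10 Klf members and, under the dashed line, 5 other Klf genes, in unsorted against intact (left) and MACS-sorted against unsorted samples (right). Filled points are called higher (red) or lower (blue); Klf5 at 1.55 and Klf10 at 0.63 are called higher and Klf6 at -0.61 lower after sorting, while Klf2 at 1.22 and Klf4 at 1.07 are called higher after dissociation.

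Klf2 and Klf4 were the members that varied most from sample to sample within the unsorted and the sorted group. Among the intact samples Klf7 varied most, with an SD of 0.396 on the log2 scale. Klf2, at chr8:72319062-72321654, measured 6.76, 6.89, 12.5 and 17.1 FPKM in the unsorted samples and 10.2, 1.73, 7.07 and 7.46 in the sorted ones. Klf4, at chr4:55527137-55532475, measured 4.83, 4.37, 7.85 and 12.05 in unsorted and 4.78, 1.62, 5.94 and 6.25 in sorted samples. For both genes unsorted replicates 3 and 4 were highest and MACS-sorted replicate 2 was lowest. The SD over unsorted samples was 0.65 for Klf2 and 0.67 for Klf4 on the log2 scale, at percentiles 98.4 and 98.5 of 12283 genes, and the median gene had 0.110. Klf6 was at percentile 96.3 with 0.43. In the sorted group Klf2 had an SD of 1.11 and Klf4 of 0.88, at percentiles 97.0 and 94.6. Sorting changed Klf2 by -0.84 (SE 0.52, adjusted p = 0.213, limma) and Klf4 by -0.68 (SE 0.45, adjusted p = 0.239, limma) on the log2 scale, and the groups overlapped for both.

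**Figure D3:**
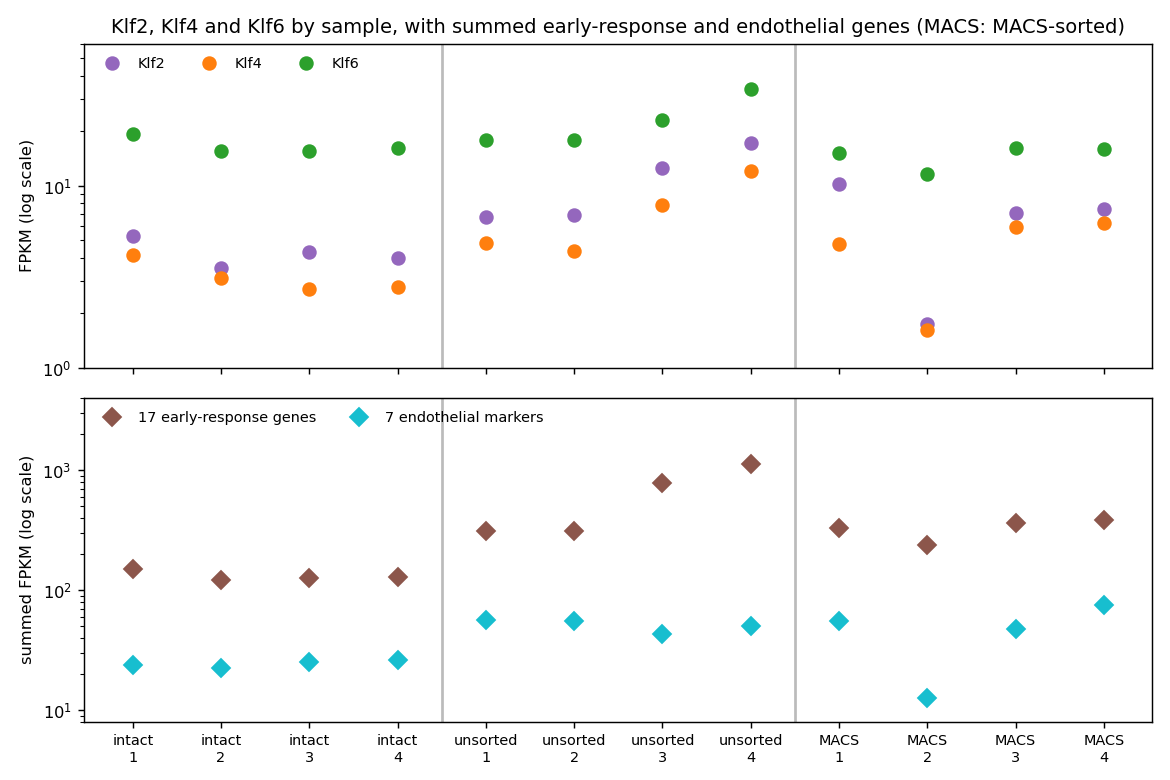
Klf2, Klf4 and Klf6 in each of the 12 samples (top, FPKM, log scale) above the summed FPKM of 17 early-response genes and of 7 endothelial markers in the same samples (bottom, log scale). The 3 Klf genes and the early-response sum are highest in unsorted replicates 3 and 4, and Klf2, Klf4 and the endothelial sum are lowest in MACS-sorted replicate 2.

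The summed levels of early-response genes and of endothelial markers are set here beside Klf2 and Klf4. The summed level of 17 early-response genes was 121 to 151 FPKM in the intact samples, and 310.6, 313.8, 787.9 and 1135 in unsorted replicates 1 to 4. It was 329.4, 238.6, 360.8 and 382.8 in MACS-sorted replicates 1 to 4, lowest in replicate 2. After sorting Fos, Jun, Egr1, Nr4a1 and Gadd45b of that list were called lower and Myc and Ier3 higher. Unsorted replicates 3 and 4 were thus high in Klf2, Klf4, Klf6 and the early-response sum. The 7 endothelial markers summed to 22.3 to 26.0 FPKM in intact samples and to 56.0, 55.3, 42.9 and 49.9 in unsorted replicates 1 to 4. That sum was thus lower in unsorted replicates 3 and 4, where Klf2 and Klf4 were highest, than in replicates 1 and 2. In MACS-sorted replicate 2 both sums were at their lowest of the sorted group, as Klf2 and Klf4 were. The part of endothelial cells and of the early-response genes in the Klf2, Klf4 and Klf6 values was not tested.

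Dissociation is the second comparison, unsorted against intact, and asks what taking the ganglion apart does to expression. Klf2 and Klf4 were called higher, 2 of 10 members, where 4.29% of 12392 genes tested were, and none was called lower, where 2.76% were. Klf5 was lower by adjusted p alone, and was the 1 member lower at an unadjusted p under 0.05 in limma (14.8% of all genes were higher and 7.79% lower by adjusted p). The median log2-fold change of the members was 0.14 and that of all genes 0.01. Among the 17 early-response genes 10 were called higher and none lower, with a median log2-fold change of 1.68, and among the 7 endothelial markers 5 were called higher and none lower, with a median of 1.17. The early-response genes called were Junb, Dusp1, Fos, Fosb, Ier2, Btg2, Jun, Zfp36, Egr1 and Nr4a1, with folds of 2.88 (Nr4a1) to 91.9 (Fosb). Other markers that moved with dissociation were those of fibroblasts (5 of 6 called lower), macrophages (3 of 6 lower), large-diameter neurons (3 of 5 higher) and satellite glia (2 of 6 higher), and their part in the Klf values was not tested.

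Klf2 was at 5.27, 3.54, 4.31 and 3.98 FPKM in intact replicates 1 to 4, below every unsorted sample. The fold was 2.53 (log2-fold change 1.22, SE 0.29, limma adjusted p = 0.0194). Klf4 was at 4.14, 3.09, 2.70 and 2.79 FPKM in the intact samples, also below every unsorted sample. Its fold was 2.29 (log2-fold change 1.07, SE 0.30, limma adjusted p = 0.0337). Unsorted replicates 3 and 4 carried much of both values: without them the log2-fold change was 0.68 for Klf2 (adjusted p = 0.0735, limma) and 0.54 for Klf4 (adjusted p = 0.150, limma). Without unsorted replicate 3 alone the limma adjusted p of Klf2 was 0.0579, with a log2-fold change of 1.11. That of Klf4 was 0.0567 to 0.0897 when intact replicate 2, 3 or 4 or unsorted replicate 3 or 4 was left out, with a log2-fold change of 0.79 without unsorted replicate 4 and of 0.99 to 1.06 in the other 4 cases. One fit over all 12 samples left both log2-fold changes at 1.22 and 1.07 and gave an adjusted p of 0.0938 for Klf2 and 0.0936 for Klf4 with limma, the spread being estimated over 3 groups.

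Klf6 was at 19.2, 15.5, 15.5 and 16.2 FPKM in the intact samples and overlapped with the unsorted ones (log2-fold change 0.43, SE 0.19, adjusted p = 0.142, limma). Klf5 moved the other way, from 16.3, 15.6, 15.2 and 17.6 FPKM in intact samples, all above the unsorted ones, by a log2-fold change of -0.48 (SE 0.07, limma adjusted p = 0.00403). Its ratio of means was -0.49 on the log2 scale, just inside the limit of 0.5, and it was called lower without intact replicate 2, intact replicate 3 or unsorted replicate 3. Klf5 was thus lower after dissociation by adjusted p and called higher after sorting. The 2 comparisons share the unsorted samples.

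Klf7 was at 31.1, 53.3, 53.2 and 55.1 FPKM in the intact samples, and intact replicate 1 was far below the others. With all samples the log2-fold change on dissociation was 0.07 (SE 0.18, adjusted p = 0.793, limma), and without that replicate -0.13 (SE 0.066, adjusted p = 0.172, limma). Klf9 was at 20.1, 26.4, 26.8 and 23.3 FPKM in intact samples, all below the unsorted ones, and its log2-fold change of 0.27 had a limma adjusted p of 0.0909. Klf10 changed by -0.16 (SE 0.11, adjusted p = 0.282, limma), Klf13 by 0.16 (SE 0.079, adjusted p = 0.166, limma), Klf3 by -0.03 (SE 0.10, adjusted p = 0.885, limma) and Klf12 by 0.12 (SE 0.15, adjusted p = 0.581, limma). None of these 4 passed the test.

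The other 16 genes of the Klf and Sp families were read in the same way. After sorting 9 of them were tested, 1 was called higher and none lower, beside 8.15% and 12.5% of all genes. The median log2-fold change of the 9 was 0.05. Klf8, a repressor gene on chromosome X, was the one called, at 3.40 to 3.64 FPKM in unsorted and 5.28 to 5.77 in sorted samples, a fold of 1.56 (log2-fold change 0.63, SE 0.087, limma adjusted p = 0.000273). Klf15, a regulator of metabolism known from liver and muscle, went from 2.55, 2.80, 3.22 and 2.51 FPKM to 0.137, 0.0892, 0.136 and 0.480, a log2-fold change of -3.35 (SE 0.37, limma adjusted p = 6.32e-05). Its level under 5 FPKM kept it from a call, and it passed the filter through its unsorted level. It was lower than in intact samples (3.33 to 5.87 FPKM) already after dissociation, by -0.64 (SE 0.17, limma adjusted p = 0.0264). Klf1, the erythroid member of the family, was at 3.50, 1.63, 2.73 and 10.4 FPKM in the sorted samples and at most 0.127 in the unsorted ones, where it was listed at 0 in replicate 4. It passed the filter through the sorted samples alone, so its difference is given as a description. Red blood cell genes moved with it, with 7 of 7 tested rows called higher, and their part in the Klf1 value was not tested.

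**Figure D4:**
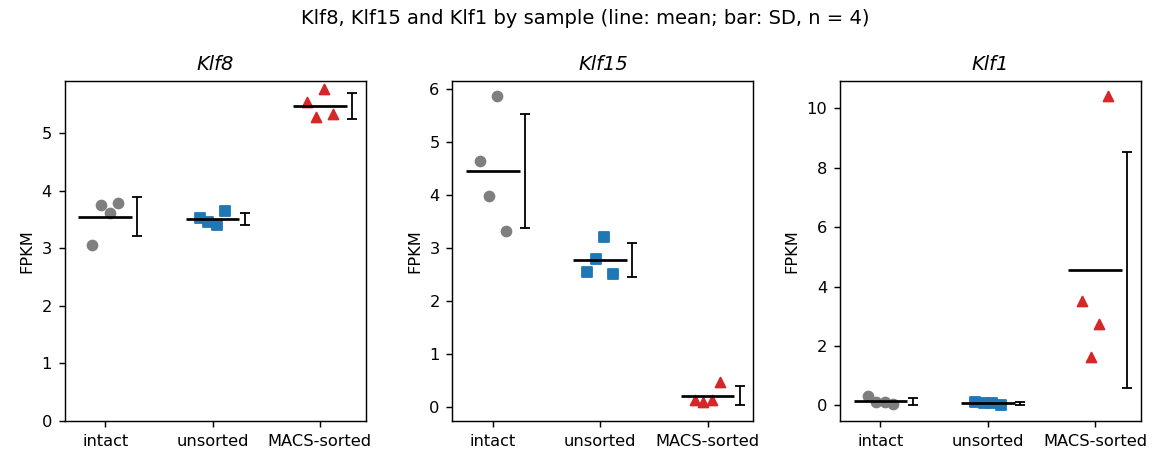
FPKM of Klf8, Klf15 and Klf1 in each sample of the 3 groups, with the mean as a line and the SD (n = 4) as a bar. Klf8 is higher in all 4 sorted samples, Klf15 is at most 0.480 FPKM there, and Klf1 is spread from 1.63 to 10.4 FPKM.

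Klf11, at 3.65 ± 0.0520 FPKM unsorted and 3.44 ± 0.498 sorted, and Klf16, at 7.45 ± 0.445 and 8.24 ± 0.580, were not called. Sp1, the founding GC-box factor, was lower by adjusted p after sorting (4.80 ± 0.844 to 2.68 ± 0.937 FPKM, log2-fold change -0.86, SE 0.23, adjusted p = 0.0127, limma), but the groups overlapped and stayed under 5 FPKM on average. Sp2, Sp3 and Sp4 did not pass the test, with Sp3 near 10.1 FPKM in sorted samples. Klf14, Klf17 and Sp5 to Sp9 were too low to test in both comparisons.

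Genes for proteins through which the family acts were tested by the same rule. Of 15 partner genes, all tested, none was called higher and 3 were called lower after sorting, beside 8.15% and 12.5% of all genes, with a median of -0.14. These were Hdac3, a histone deacetylase (29.6 ± 1.50 to 19.4 ± 1.35 FPKM, fold 0.657, limma adjusted p = 0.000107), Kat2b, a histone acetyltransferase (8.07 ± 0.877 to 4.59 ± 0.927 FPKM, log2-fold change -0.82, limma adjusted p = 0.00208), and Wwp1, a ubiquitin ligase (9.97 ± 0.997 to 5.21 ± 0.677 FPKM, fold 0.523, limma adjusted p = 0.000156). Ctbp1, partner of Klf3 and Klf12, was at 78.0 ± 3.89 FPKM in unsorted and 80.7 ± 7.93 in sorted samples and did not pass the test. Ctbp2, the other CtBP gene, went from 3.64 ± 0.279 to 1.70 ± 0.534 FPKM (log2-fold change -1.10, SE 0.21, limma adjusted p = 0.00196), and Fhl3 from 1.89 ± 0.408 to 0.300 ± 0.247 FPKM (-2.50, SE 0.44, limma adjusted p = 0.00118). Both were lower in every sorted sample and under the 5 FPKM limit of a call, and Fhl3 passed the filter through its unsorted level. None of the 15 was called after dissociation by limma, with a median of 0.04, where all genes had 4.29% called higher and 2.76% lower.

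Of 14 genes known as targets of Krüppel-like factors, 13 were tested after sorting, 2 were called higher and 1 lower, with a median of -0.15, where all genes had 8.15% higher and 12.5% lower. Ccnd1, a cell cycle gene that many dividing and glial cells use, was called lower, with a log2-fold change of -3.98 (adjusted p = 6.63e-05, limma). Lgals3 was called higher, by 1.66 (SE 0.26, limma adjusted p = 0.000545), and Cdkn1a, a cell cycle inhibitor, by 0.59 (adjusted p = 0.0466, limma) with overlapping groups. After dissociation all 14 were tested and 2 were called higher, L1cam with a log2-fold change of 0.54 and S1pr1 with 0.49. Lgals3 was called lower, with -0.74, and the median of the list was -0.01, where all genes had 4.29% called higher and 2.76% lower. S1pr1, a Klf2 target in endothelium and lymphocytes, was at 9.03, 3.85, 7.17 and 8.51 FPKM in the sorted samples, lowest in replicate 2 as Klf2 and the endothelial sum were. In unsorted replicates 1 to 4 S1pr1 was at 8.08, 6.88, 6.43 and 7.65 FPKM. It was lowest there in replicate 3, where Klf2, at 12.5 FPKM, was above replicates 1 and 2. The part of Klf2 and of endothelial cells in the S1pr1 values was not tested.

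Across all 12 samples the patterns most like those of the 4 called members were found by the root mean square difference of centred log2 levels, over 8262 genes of at least 5 FPKM on average. For Klf5 these were Paqr5 (0.145), Celf6 (0.169) and Dusp26 (0.183). Those nearest to Klf7 were Ckap5 (0.094), Cacna1b (0.095), which encodes a calcium channel subunit, and Ano3 (0.102). For Klf10 they were Snx7 (0.075), Nrn1 (0.076) and Ppp1r1c (0.086), and for Klf6 Cited2 (0.178), Dnaja4 (0.214) and Wdr33 (0.223).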

How the data were processed

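Poly(A) RNA of 12 samples, 4 per group, was sequenced from directional libraries. The deposited values are FPKM per gene, which the authors made with TopHat2 on mm10 and Cufflinks 2.1.1; the strand setting of the counting was not given in the sources used here, so overlapping antisense genes may share reads. From these, log2(FPKM + 0.1) was tested with limma 3.58.1 in R 4.3.3 (trended prior, two-sided, Benjamini-Hochberg over all genes tested), within the 8 samples of each comparison, for genes averaging at least 1 FPKM. It replaces the study's count-based test, since FPKM values are not counts. The call limits follow the study's criteria. Fold changes on this scale understate those of low genes. All 10 members were named, with every other Klf and Sp gene, called genes of the partner, target and early-response lists (with Ctbp1, Ctbp2 and Fhl3, added after their values were seen), and the 3 nearest patterns of each member called after sorting. A gene of the target list is not reported here and was left out of its counts. Members and lists were chosen with earlier results of these data known. Replicates are separate samples by the labels, of pooled mice, so p-values measure the spread between these samples. Depth was estimated from low values with an assumed fragment length of 150 bases. Alternatives covered the pseudocount, filter, scaling, samples in the fit, replicate block, call limits and samples left out. The analysis was tested on simulated data.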

Additional observations from a re-analysis of the deposited data

Results flagged for a closer look

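Of 30 groups of 4 samples checked, 1 per member and group, 2 had a sample far from the other 3, and chance flags about 1 group in 20. Klf7 measured 31.1 FPKM in intact replicate 1, where the other 3 intact samples lay at 53.2 to 55.1. Klf3 measured 6.12 FPKM in MACS-sorted replicate 4, where the other sorted samples lay at 3.71 to 4.12, with a gap of 0.831 of the group's range.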

How the results depend on the processing

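After sorting, Klf5, Klf7 and Klf10 kept their direction and a limma adjusted p under 0.05 in all 24 alternatives run for each. Their log2-fold changes were 1.48 to 1.68 for Klf5, 0.55 to 0.68 for Klf7 and 0.57 to 0.73 for Klf10. Alternatives that change only the call limits leave these values as they are. Klf9 after sorting and Klf5 after dissociation also stayed under 0.05 in all of theirs. Klf12 after sorting did so in its 23, but it passed the filter through its unsorted level. The filter at a mean of 5 FPKM left Klf12 untested. No value changed sign past the threshold. Over the members 16 log2-fold changes fell short of it, 7 passed it newly and the rest kept their side. After sorting, 3 members were called higher and 1 lower. The count lower was 0 with median-ratio scaling, 0 with a log2 ratio beyond 1, 2 with a mean above 1 FPKM, 3 with adjusted p alone, and 0 without unsorted replicates 3 and 4, an alternative chosen after seeing the data. The count higher was 1, Klf5, with a log2 ratio beyond 1. After dissociation, 2 were called higher and 0 lower. The count higher was 0 with all 12 samples in one fit and 0 without unsorted replicates 3 and 4. The count lower, which is Klf5 near its ratio limit, was 1 with quantile scaling, 1 with adjusted p alone and 1 without unsorted replicates 3 and 4. Leaving out 1 replicate at a time, the counts ran from 3 to 3 higher and 0 to 1 lower after sorting, and from 0 to 2 higher and 0 to 1 lower after dissociation. The replicate numbers did not pair the samples: same-numbered samples correlated at -0.041 to 0.049 in the sorting comparison and -0.143 to 0.051 in the other over 12283 genes. With the replicate block, 2 members were called lower after sorting (Klf4 joined, adjusted p = 0.0413, limma) and 1 higher after dissociation. Values under about 1 FPKM, as for Klf12 and Klf15 in sorted samples, rest on few reads, and with 4 samples a group, a single library can decide a call.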

Other observations

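Klf2 and Klf4 had each other as the nearest pattern of all genes compared, with a root mean square difference of 0.26 in centred log2 levels over the 12 samples. This pair was chosen after its values were seen, and both genes vary with the same few libraries, unsorted replicates 3 and 4 and MACS-sorted replicate 2.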
